A study of Mus musculus with 96 samples.

Results

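The comparison described here was LPS with interferon gamma (IFNG) against LPS alone after 2 h, measured in 12 of the 96 arrays of the series. RAW 264.7 is an established mouse macrophage-like cell line. Its RNA, from cells given LPS, IFNG or 2-methyl-thio-ATP, or LPS with either of the others, was hybridised on 2-colour arrays against RNA of untreated cells. LPS, the lipopolysaccharide of Gram-negative bacteria, was used at 100 ng, with no volume stated, together with 100 pM LPS binding protein, which carries LPS to its receptor. The cells of both groups received this LPS for 2 h, and those of 1 group also received IFNG at 5 nM. The labels name no deletion or transgene in any group. Each group held 3 numbered sets, and each set was hybridised in 2 dye orders, with the treated RNA in Cy5 on 1 array and in Cy3 on the other. The members were chosen by the titles of the arrays, 6 per group. A set value was the mean over both dye orders of the log2 ratio of treated to untreated cells, and the comparison was the set values of LPS with IFNG minus those of LPS alone. Nothing in the labels says that sets were separate cultures or whether groups shared untreated RNA, so the p-values reflect how much sets differed, and part of that may be technical.

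LPS binds Toll-like receptor 4 and signals through MyD88 to NF-kB and MAP kinases, which switch on cytokine genes, and through TRIF to IRF3, which switches on interferon beta. IFNG binds its own receptor, which signals through the kinases JAK1 and JAK2. Promoters of IFNG-induced genes often hold a palindrome called the gamma-activated site (GAS), and interferon regulatory factors (IRFs) bind a second element, the interferon-stimulated response element (ISRE). Macrophages given both agents are the textbook case of classical activation, with antimicrobial GTPases, T cell-attracting chemokines, antigen presentation and nitric oxide among the outputs.

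Promoter sequences of RefSeq (GRCm38.p6) were searched for GAS as TTCNNNGAA and ISRE as GAAANNGAAA on both strands. Each window ran from 250 bases before the gene start to 50 after it. The following 6 promoters are shown because they hold such letters in genes whose difference between the groups was large or changed with time, and capitals mark every match. They read 5′ to 3′ on the gene's strand: Tgtp1 at chr11:48992197-48992496 (minus strand), Igtp at chr11:58199306-58199605 (plus strand), Irgm2 at chr11:58214727-58215026 (plus strand), Irf1 at chr11:53769764-53770063 (plus strand), Irf8 at chr8:120736108-120736407 (plus strand) and Ifit1 at chr19:34640639-34640938 (plus strand).
Tgtp1: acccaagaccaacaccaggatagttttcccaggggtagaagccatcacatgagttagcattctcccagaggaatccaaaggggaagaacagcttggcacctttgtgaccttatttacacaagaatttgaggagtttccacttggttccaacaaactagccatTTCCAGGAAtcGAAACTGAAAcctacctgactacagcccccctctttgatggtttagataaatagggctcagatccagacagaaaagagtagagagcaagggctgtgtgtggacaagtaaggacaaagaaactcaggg
Igtp: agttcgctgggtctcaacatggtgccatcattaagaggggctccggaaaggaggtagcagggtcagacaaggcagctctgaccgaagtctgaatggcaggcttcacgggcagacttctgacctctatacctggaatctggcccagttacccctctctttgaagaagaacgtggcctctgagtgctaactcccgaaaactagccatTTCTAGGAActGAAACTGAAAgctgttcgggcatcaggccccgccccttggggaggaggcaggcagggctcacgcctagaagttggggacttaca
Irgm2: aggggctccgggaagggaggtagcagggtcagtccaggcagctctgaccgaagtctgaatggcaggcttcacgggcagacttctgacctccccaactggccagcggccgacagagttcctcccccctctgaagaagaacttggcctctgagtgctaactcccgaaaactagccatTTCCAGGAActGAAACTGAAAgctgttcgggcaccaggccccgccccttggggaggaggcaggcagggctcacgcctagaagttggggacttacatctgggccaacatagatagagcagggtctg
Irf1: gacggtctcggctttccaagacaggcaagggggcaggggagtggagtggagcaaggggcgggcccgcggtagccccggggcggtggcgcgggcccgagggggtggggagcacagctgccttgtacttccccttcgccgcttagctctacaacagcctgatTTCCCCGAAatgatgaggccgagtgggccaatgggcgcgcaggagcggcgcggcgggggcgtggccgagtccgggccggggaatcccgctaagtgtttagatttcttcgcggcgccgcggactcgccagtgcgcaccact
Irf8: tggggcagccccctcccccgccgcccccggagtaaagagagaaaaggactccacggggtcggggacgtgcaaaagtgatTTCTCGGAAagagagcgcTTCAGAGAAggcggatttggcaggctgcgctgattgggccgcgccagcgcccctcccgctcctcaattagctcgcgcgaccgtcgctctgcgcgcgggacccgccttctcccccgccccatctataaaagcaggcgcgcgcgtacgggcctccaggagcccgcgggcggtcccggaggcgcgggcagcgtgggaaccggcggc
Ifit1: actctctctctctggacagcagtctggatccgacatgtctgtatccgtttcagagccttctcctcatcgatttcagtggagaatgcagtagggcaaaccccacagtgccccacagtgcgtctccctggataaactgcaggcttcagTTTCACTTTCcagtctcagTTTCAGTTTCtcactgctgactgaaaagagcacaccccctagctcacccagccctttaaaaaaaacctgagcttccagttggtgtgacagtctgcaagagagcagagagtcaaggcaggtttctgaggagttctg

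The 3 immunity-related GTPase promoters each held 1 GAS and 1 ISRE match whose first bases lay 11 bases apart. The pair began 88 and 77 bases before the start in Tgtp1, 45 and 34 in Igtp, and 75 and 64 in Irgm2. These genes are related in sequence, so the shared arrangement is not 3 separate observations. The window shown for Irf1 held 1 GAS match, 90 bases before the start, and that for Irf8 held 2 GAS matches. Another listed start of each of these genes had neither motif in its window. The window of Cxcl9, the gene with the largest rise, held neither as well. Ifit1 held 2 ISRE matches and no GAS match. A match is a string of letters and was not tested as a binding site, and the absence of one says only that these letters were not in the window.

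Adding IFNG to LPS raised 236 genes and lowered 82 of the 11589 tested (adjusted p under 0.05, limma with Benjamini-Hochberg over all genes), which is 2.74% of the genes, 2.04% higher and 0.708% lower. The higher genes were led by the chemokine Cxcl9, the immunity-related GTPases Iigp1 and Tgtp1, the coagulation initiator F3 (tissue factor) and the transcription factor Irf8. The lower genes were led by Id3, an inhibitor of helix-loop-helix transcription factors, and Apobec1, an RNA-editing cytidine deaminase. The rises were the larger changes: the median log2 difference was 0.90 over the higher genes and -0.56 over the lower genes, against 0.01 over all genes, and 103 of the 111 genes that also differed at least 2-fold (0.958% of all genes) were higher (0.889%). Set values of both groups did not overlap for 225 of the 236 higher and 78 of the 82 lower genes, where 11.3% of all genes had no overlap (6.15% higher and 5.15% lower).

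Sets of 1 number deviated together, though weakly for set 3 (correlation 0.169). Set 3 of LPS with IFNG correlated more with set 1 of LPS (0.275). With the set as a block 698 genes passed (436 higher and 262 lower), all 318 among them. Leaving set 1 out of every group gave 123 calls, set 2 199 and set 3 188, and leaving out set 1 of LPS with IFNG only gave 205. Across genes the set differences correlated at 0.51 between sets 1 and 2, 0.41 between sets 1 and 3 and 0.19 between sets 2 and 3, as a description of these arrays.

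**Figure D1:**
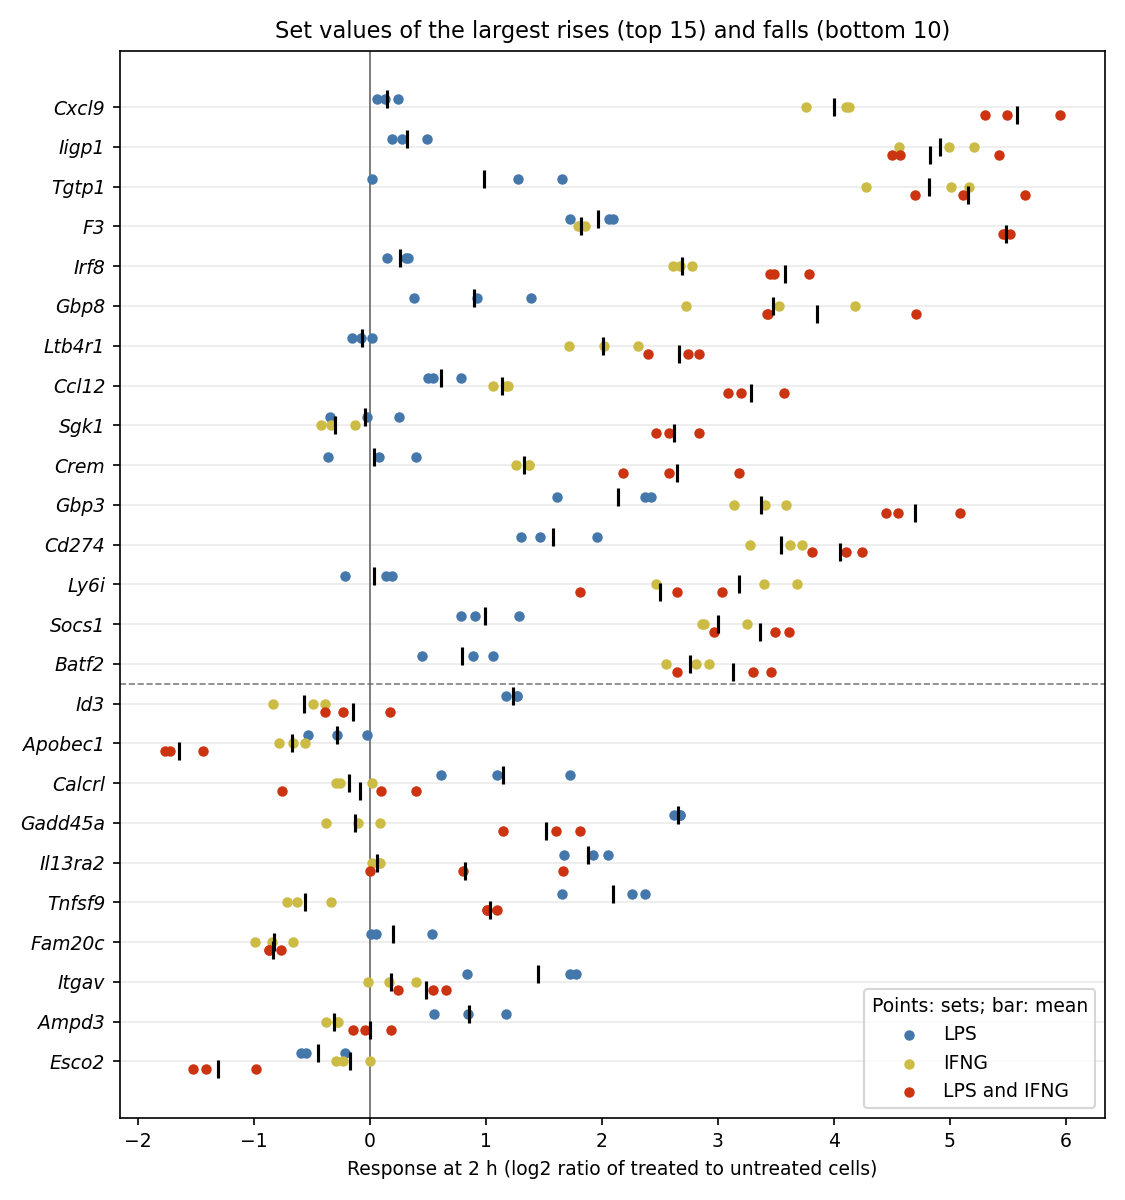
Each point is the log2 ratio of treated to untreated cells at 2 h in 1 set (3 per group), and black bars are group means, for the 15 genes with the largest rises (above the dashed line) and the 10 with the largest falls when IFNG was added to LPS. The genes were chosen by this same comparison. The values of LPS with IFNG do not overlap those of LPS alone in any of the 25 genes, though in Il13ra2 they nearly touch. For genes such as Iigp1 and Ly6i the values of LPS with IFNG overlap those of IFNG alone.

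Cxcl9, a chemokine that recruits T cells through CXCR3, showed the largest rise. Its log2 response was 5.95, 5.30 and 5.49 in sets 1 to 3 with both ligands, 0.24, 0.06 and 0.14 with LPS alone and 4.11, 4.13 and 3.77 with IFNG alone. LPS alone left it close to untreated cells in every set, and no set of one group reached another group. The difference was 5.44 ± 0.19 (SE) on the log2 scale, a 43.3-fold rise (adjusted p = 7.9e-23). Ccl12, a ligand of the chemokine receptor CCR2, had responses of 3.57, 3.20 and 3.09 with both ligands against 0.79, 0.55 and 0.50 with LPS alone. It rose by 2.68 ± 0.23 (SE; adjusted p = 2.2e-11). In set 2 a probe of Ccl12 lacked a difference between the groups, and its other probe gave 1.98. The set 2 values of the groups therefore do not rest on the same probes. Of 6 interferon-linked chemokines tested, Cxcl9, Ccl12 and Cxcl16 (0.66) rose and none fell, with a median of 0.525; Ccl5 differed by -0.15 (adjusted p = 0.88).

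The immunity-related GTPases, which attack the vacuoles that hold intracellular parasites and bacteria, rose in 4 of 4 members tested, with a median difference of 3.21. Iigp1 had log2 responses of 5.43, 4.51 and 4.57 with both ligands, 0.49, 0.28 and 0.19 with LPS and 5.21, 4.99 and 4.56 with IFNG, and rose 22.8-fold (4.51 ± 0.30 SE; adjusted p = 7.3e-14). The responses to both ligands and to IFNG alone overlapped, and those to LPS alone lay far below. Tgtp1 had 5.65, 5.12 and 4.70 with both and 1.28, 1.66 and 0.02 with LPS, and rose by 4.17 ± 0.34 (SE; adjusted p = 1e-11). In Tgtp1 set 3 of LPS alone was the low value, and 1 probe in 1 array of LPS with IFNG stood at the deposited maximum of log2 of 100. Its near-identical neighbour Tgtp2 was not tested as a separate gene, and whether the probes tell them apart was not tested. Igtp rose by 2.25 and Irgm2 by 1.98, the second with 2 sets of LPS with IFNG because 1 had no value. Irgm2 was no longer called when zeros were kept as values. The list held 9 members, and the others were not tested under the filter used. With zeros kept as values 3 of 6 rose, with a median of 1.91. Where 2 set values were required only in the compared groups, 5 of 5 rose.

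The guanylate-binding proteins, which act with the immunity-related GTPases on pathogen membranes, rose in 3 of 3 members tested, with a median of 2.56. Gbp3 had log2 responses of 5.09, 4.46 and 4.56 with both ligands against 2.38, 2.42 and 1.62 with LPS, a rise of 2.56 ± 0.27 (SE; adjusted p = 7.9e-09). Gbp3 also rose with LPS alone. Gbp8 had 4.71, 3.42 and 3.43 against 1.39, 0.92 and 0.38 and rose by 2.96, with set 1 the highest in both groups. Gbp4 rose by 1.14 (adjusted p = 0.02), with 1.77, 1.09 and 0.58 against 0.19, 0.07 and -0.24. Gbp4 fell below the threshold in 6 of 20 other settings. The family has near-identical copies, and cross-hybridisation between them was not tested. The other 8 listed members, Gbp2 among them, were not tested under the filter used. Where 2 set values were required only in the compared groups, 5 members were tested and 5 rose, and with zeros kept as values 4 of 5 rose.

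Of 25 genes of interferon receptor, STAT and IRF signalling, 9 rose and 1 fell, with a median of 0.205. Irf8, a factor of macrophage identity that pairs with IRF1 and PU.1, had responses of 3.49, 3.79 and 3.46 with both ligands, 0.32, 0.33 and 0.15 with LPS and 2.62, 2.78 and 2.68 with IFNG, and rose by 3.31 ± 0.21 (SE; adjusted p = 1.9e-14). All 3 sets with both ligands exceeded all 3 with IFNG alone. Socs1, the feedback inhibitor of JAK kinases, rose by 2.37, and Batf2, a partner of IRF1, by 2.34. Stat3 rose by 1.88 (adjusted p = 1.2e-11), Irf1 by 1.52, Cish by 1.50, Irf4 by 1.28, Stat2 by 1.00 and the phosphatase Ptpn2 by 0.62. Irf1, an early IFNG-induced transcription factor, had 3.84, 3.59 and 4.01 against 2.70, 1.97 and 2.18, and it rose with LPS alone as well. Ifnar1, a chain of the type I interferon receptor, fell by 0.44 (adjusted p = 0.025), which did not pass in 12 of 20 other settings; of the 9 that left out a set, it passed without set 3 of LPS. With the set as a block Ifngr2 (-0.40) fell as well.

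Antigen presentation on MHC class I serves CD8 T cells and on class II serves CD4 T cells. Of 15 genes of MHC class I presentation 6 rose and none fell, with a median of 0.36, while of 8 class II genes none passed (median 0.00; lowest -0.24, highest 0.41). Tap1, a subunit of the peptide pump, rose by 1.84 ± 0.22 (SE; adjusted p = 2.4e-07), from 1.00, 0.44 and -0.24 with LPS to 2.62, 2.08 and 2.02 with both. Tap2 rose by 1.01, B2m, the class I light chain, by 0.85, Psmb10 by 0.73, H2-T23 by 0.72 and Psmb8 by 0.43. Psmb8 and Psmb10 are immunoproteasome subunits, and the sets of Psmb8 overlapped. Without set 1 of every group 3 class I genes passed. Ciita, the master regulator of class II, differed by -0.06, with 0.01, 0.18 and -0.22 against 0.00, 0.13 and 0.03. Cd74 differed by 0.41 (adjusted p = 0.28).

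Genes of the type I interferon and antiviral list had mostly been raised by LPS already: 21 of 24 rose with LPS alone (where 7.84% of all genes did) and 19 with IFNG alone (2.83% of all genes). Adding IFNG to LPS raised 6 and lowered none, with a median of 0.33. Samhd1, which depletes nucleotides that viruses need, had 1.90, 1.87 and 1.74 against 0.30, 0.13 and -0.07 and rose by 1.71 ± 0.14 (SE; adjusted p = 1.2e-11). Zbp1, a sensor of nucleic acids, rose by 1.54, Herc6 by 1.21, Oasl2 by 0.99, Parp9 by 0.73 and Rtp4 by 0.57. Ifit1, which binds viral RNA, had 3.66, 3.12 and 3.37 with both ligands against 3.99, 3.65 and 3.23 with LPS, overlapping values with a difference of -0.24 (adjusted p = 0.84). The count fell to 2 without set 1 of every group, without set 1 of LPS with IFNG or without set 3 of LPS, and to 3 without set 2 of every group or of LPS with IFNG. With the set as a block 9 rose, Cmpk2 (1.00), Isg15 (0.76) and Nmi (0.63) being added.

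**Figure D2:**
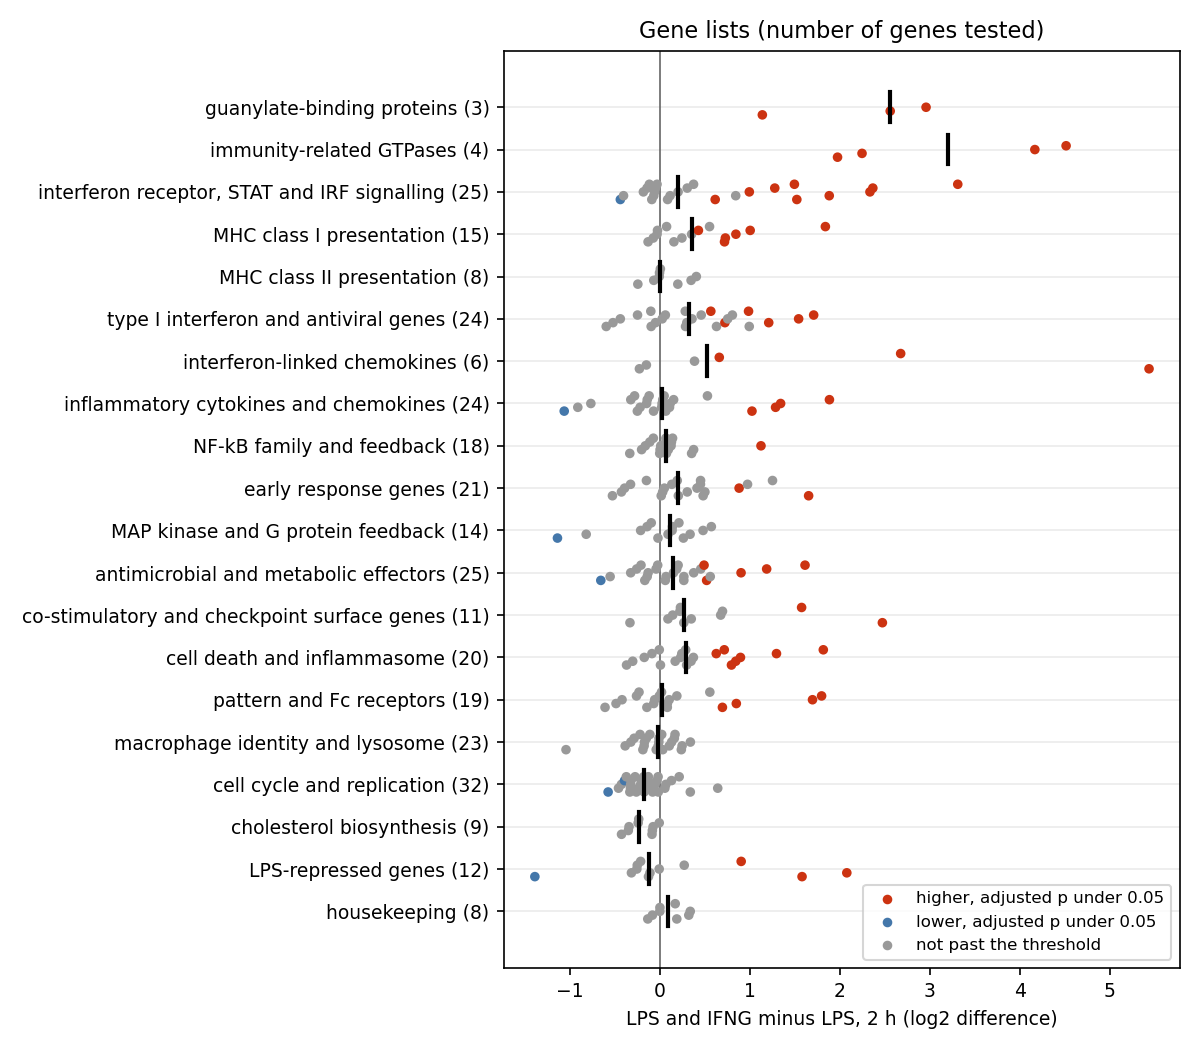
Each point is a gene and its position is the log2 difference between LPS with IFNG and LPS alone at 2 h, with genes grouped by list and coloured by direction where the adjusted p was under 0.05. Black bars are list medians, which lie at 2.56 and 3.21 for the 2 GTPase families and at 0.03 for inflammatory cytokines and chemokines.

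Most of the LPS-driven inflammatory genes did not pass the test when IFNG was added. Of 24 inflammatory cytokines and chemokines, 17 rose with LPS alone, and 4 rose and 1 fell on adding IFNG, with a median of 0.03. Tnf had log2 responses of 3.84, 2.90 and 4.23 with both ligands and 3.86, 3.73 and 4.04 with LPS, and its difference of -0.22 had a 95% interval from -1.10 to 0.67. Il1b had 5.00, 4.43 and 4.66 and 4.81, 4.50 and 4.43, with a difference of 0.12 and an interval from -0.53 to 0.77. The groups overlapped in both genes. Ccl4 differed by 0.04 (interval -0.51 to 0.58) and Ptgs2, the inducible cyclooxygenase, by 0.56 (interval -0.25 to 1.38).

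The cytokine genes that rose were Il15, Il18, Il18bp and Il6. Il15, which sustains natural killer cells, had 3.62, 3.37 and 2.94 against 1.88, 1.70 and 0.69 and rose by 1.89 ± 0.24 (SE; adjusted p = 4.6e-07). Il18, a partner of IL-12 in inducing IFNG, rose by 1.34, and Il18bp, its soluble antagonist, by 1.29. Il6 rose by 1.03 (adjusted p = 0.02), but set 3 with both ligands (2.09) lay below sets 2 and 3 of LPS alone (2.28 and 2.23). Tnfsf9, the ligand of CD137, had 1.02, 1.01 and 1.10 against 2.27, 2.38 and 1.66 and fell by 1.06 (adjusted p = 0.036), and it was not called in 9 of 20 other settings. The count of rises was 2 without set 1 of every group or without set 2 of LPS with IFNG, and of the 9 settings that left out a set, Tnfsf9 was called without set 3 of every group and without set 3 of LPS. With the set as a block Csf3 (-0.91) was a second fall.

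Among 18 genes of the NF-kB family and its feedback, 16 rose with LPS alone and only Bcl3, a nuclear IkB protein, rose further (1.13; adjusted p = 0.014); it was lost without set 1 or 2 of every group, set 1 or 2 of LPS with IFNG, or set 1 or 3 of LPS. The list median was 0.07. Of 21 early response genes Klf6 rose by 1.66 and Atf3 by 0.88, and leaving out set 2 of every group or set 1 of LPS with IFNG left 1 of them. Of 14 genes of MAP kinase and G protein feedback, Gadd45a alone passed. It fell by 1.13, from 2.68, 2.62 and 2.67 with LPS to 1.61, 1.81 and 1.15 with both, a reduced rise and not a drop below untreated cells. It was lost without set 1 or set 2 of every group and without set 3 of LPS with IFNG, and 2 genes of this list fell without set 3 of every group or of LPS.

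Effector genes of killing and metabolism rose in 5 of 25 cases. Nos2, the inducible nitric oxide synthase, had log2 responses of 2.76, 2.25 and 1.83 with both ligands, 0.88, 0.96 and 0.16 with LPS and 0.22, 0.35 and 0.23 with IFNG, and rose 3.06-fold (1.62 ± 0.20 SE; adjusted p = 3.3e-07). No set of LPS with IFNG overlapped either single ligand. Upp1, a uridine phosphorylase, rose by 1.19 with 1.55, 0.84 and 1.29 against 0.11, -0.03 and 0.02, and mitochondrial superoxide dismutase Sod2 by 0.90. Ass1, which makes arginine for nitric oxide synthesis, rose by 0.52 with overlapping sets and Gclm by 0.49, while Gclc, its partner in glutathione synthesis, fell by 0.65 (adjusted p = 0.0026). The 5 rises became 3 without set 1 or 2 of every group, set 1 or 2 of LPS with IFNG, or set 1 of LPS, and the fall of Gclc was lost without set 1 or 2 of every group.

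Surface and death genes rose in several lists. Cd274, the gene of PD-L1, a ligand that restrains T cells, had 4.24, 4.11 and 3.81 with both ligands against 1.47, 1.96 and 1.31 with LPS, and rose by 2.47 ± 0.22 (SE; adjusted p = 7.2e-11). Cd40, the other of 11 co-stimulatory and checkpoint genes to pass, rose by 1.58 and was lost without set 3 of every group and without set 1 of LPS with IFNG. With the set as a block 4 of the 11 rose, Fas (0.68) and Tnfsf4 (0.35) being added. Of 20 genes of cell death and the inflammasome 7 rose and none fell, with a median of 0.295: the TNF receptor Tnfrsf1a (1.82), Pml (1.30), the necroptosis executor Mlkl (0.90), Daxx (0.85), Casp1 (0.80), Casp4 (0.72) and Sp100 (0.63). Of these, 3 passed without set 1 of every group or of LPS with IFNG, and 4 without set 3 of LPS.

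Of 19 pattern and Fc receptors 4 rose. Fcgr3, a low-affinity IgG receptor, had 1.03, 1.50 and 0.96 with both ligands and -0.77, -0.21 and -0.93 with LPS, so it lay above untreated cells in every set of one group and below in every set of the other, and rose by 1.80 ± 0.21 (SE; adjusted p = 9.1e-08). The beta-glucan receptor Clec7a rose by 1.70, the high-affinity IgG receptor Fcgr1 by 0.85 and the adaptor Myd88 by 0.70. With the set as a block Tlr2 also passed, as the 1 fall of this list (-0.61). The genes with the largest rises also held several outside the interferon lists: F3, Ltb4r1, Sgk1, Crem and Ly6i. F3 had 5.46, 5.48 and 5.52 with both ligands, 2.07, 2.10 and 1.73 with LPS and 1.81, 1.86 and 1.79 with IFNG, and rose 11.5-fold (adjusted p = 7e-10). Ltb4r1, the leukotriene B4 receptor, rose by 2.73, the cAMP-responsive factor Crem by 2.61 and the surface antigen Ly6i by 2.46. Sgk1, a kinase regulated by hormones and stress, had 2.58, 2.47 and 2.84 with both ligands against 0.26, -0.02 and -0.34 with LPS and -0.33, -0.42 and -0.13 with IFNG, and rose by 2.66 ± 0.35 (SE; adjusted p = 9.9e-07). In set 1 a probe of Sgk1 lacked a difference between the groups, and its other probe gave 2.27. All 15 of the largest rises were called under all 20 other settings.

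The falls were smaller and depended more on the settings. Id3 had 0.18, -0.39 and -0.23 with both ligands, 1.27, 1.18 and 1.27 with LPS and -0.49, -0.38 and -0.84 with IFNG, and fell by 1.39 (SE 0.23; adjusted p = 9.6e-05). LPS raised it, and with IFNG present it was near untreated cells. Apobec1 had -1.44, -1.77 and -1.72 against -0.03, -0.28 and -0.53 and fell by 1.36 (SE 0.21; adjusted p = 2.1e-05), below each single ligand in every set. Id3 and Apobec1 were called in all 20 other settings, and the other 8 of the 10 largest falls lost the call in 3 to 10 of them. Calcrl, a receptor for adrenomedullin, fell by 1.23, but by 0.60 without set 2 of every group. Il13ra2, a decoy receptor for IL-13, fell by 1.06; its set 3 hardly differed (1.67 against 1.68), and the fall was 0.57 without set 2 of every group and 1.59 without set 3. Fam20c, a kinase of secreted proteins, fell by 1.03, the integrin Itgav by 0.97, the AMP deaminase Ampd3 by 0.86 and the cohesin acetyltransferase Esco2 by 0.85.

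Of 12 genes listed as repressed by LPS, 6 fell and 2, Id3 among them, rose with LPS alone in these arrays, so the list's name holds for only some of its members. On adding IFNG 3 rose (Id2 by 2.08, the iron exporter Slc40a1 by 1.58 with overlapping sets, and the cannabinoid receptor Cnr2 by 0.91) and Id3 fell. Id2 had 1.97, 1.79 and 0.95 with both ligands, -0.47, -0.45 and -0.61 with LPS and 0.01, -0.01 and 0.00 with IFNG, so neither single ligand gave a rise. Of 32 cell cycle and replication genes 26 lay below 0, with a median of -0.17, against 0.01 over all genes. With LPS alone the median of this list was -0.19, against -0.01 over all genes. Rrm2 (-0.57) and Bub1b (-0.39) fell on adding IFNG, while 6 fell and Ccnd2 (0.65) rose with the set as a block. Both calls were lost without set 1 or 2 of every group, set 1 or 2 of LPS with IFNG, or set 1 of LPS, and 1 was lost without set 2 or set 3 of LPS. All 9 cholesterol synthesis genes tested lay below 0 (median -0.23, against 0.01 over all genes), and none passed, while Mvd (-0.42) fell with the set as a block. None of 23 genes of macrophage identity and lysosome and none of 8 housekeeping genes passed, with medians of -0.02 and 0.09; without set 3 of every group or of LPS 1 gene of the former list fell.

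Log ratios carry no expression level, and a difference between treatments cannot show which cell types were present. The labelled cell type could therefore not be read from these values, and the markers are given only as genes of the comparison. Of 5 macrophage markers tested Fcgr1, which had 1.51 with IFNG alone, rose, and the others did not pass. None of 7 T and NK cell, 5 B cell, 6 fibroblast, 5 epithelial and 3 dendritic cell markers passed. Of 7 neutrophil and mast cell markers, Kit rose by 0.97 (adjusted p = 0.0001). The medians of these lists lay between -0.137 and 0.145, and the part of other cell types in the results was not tested.

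The IFNG-alone group at 2 h shares no array with the comparison, but both sets of calls come from the same fit and its estimate of the spread. Deviations of same-numbered sets correlated at 0.47, 0.623 and 0.262 between LPS with IFNG and IFNG alone. The calls are therefore not independent and are set beside each other as a description. IFNG alone raised 328 genes (2.83%) and lowered 70 (0.604%). Of the 236 genes that rose on adding IFNG to LPS, 151 rose with IFNG alone, 64.0% of the former and 46.0% of the latter. Of the 82 that fell, 17 fell with IFNG alone, 20.7% and 24.3%. Smad6, an inhibitor of BMP signalling named after its values were seen, was the 1 gene with opposite calls: it fell with IFNG alone (-0.47) and rose on adding IFNG to LPS (0.75), where LPS alone gave -1.03.

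Whether the response to both ligands was the sum of the responses to each was tested as the response to both minus LPS minus IFNG, on the log2 scale, where a sum means that fold changes multiply. It shares the arrays of both groups with the comparison above, so its values are given only side by side with it. Of the 11589 genes 43 departed (0.371%), 18 above the sum (0.155%) and 25 below it (0.216%). Without set 1 of every group 7 passed and without set 2 12 passed. Above the sum the largest were Sgk1 (2.96 ± 0.43 SE; adjusted p = 9.4e-05), Id2 (2.08 ± 0.40), Crabp2 (1.80 ± 0.41), Ccl12 (1.53 ± 0.28), Gar1 (1.50 ± 0.17) and Cxcl9 (1.43 ± 0.23). Crabp2, a retinoic acid-binding protein, had 2.58, 1.85 and 1.25 with both ligands, 0.04, -0.23 and 0.37 with LPS and -0.10, 0.27 and -0.07 with IFNG, and Gar1, a component of the RNA pseudouridylation complex, had 2.09, 2.37 and 1.89, -0.09, -0.21 and 0.00 and 0.59, 0.77 and 0.78. Sgk1, Id2 and Crabp2 were near or below untreated cells with each ligand alone and above them in all 3 sets with both. Set 2 of Ccl12 and set 1 of Sgk1 do not compare the same probes, and the effect on these sizes was not tested. Nos2 and Upp1 also lay above the sum, by 1.35 ± 0.25 and 1.16 ± 0.19, whereas F3 did not pass (1.70 ± 0.42 SE; adjusted p = 0.056).

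The 6 named genes with all set values that lay furthest below the sum each rose with LPS alone and with IFNG alone. They were Trim21 (-2.15 ± 0.30 SE; adjusted p = 7.6e-05), Irf1 (-2.15 ± 0.32), Lynx1 (-2.12 ± 0.32), Ifit1 (-1.99 ± 0.29), Parp14 (-1.78 ± 0.27) and Pim1 (-1.78 ± 0.36). Trim21, an intracellular antibody receptor, had 2.11, 1.43 and 1.77 with both ligands, 2.19, 1.97 and 1.06 with LPS and 2.20, 1.91 and 2.41 with IFNG. The values of the 3 conditions overlapped. Ly6-family member Lynx1 had 4.27, 4.22 and 4.03, 4.29, 4.19 and 4.17 and 2.23, 1.99 and 2.02 in the same order, and Pim1, a serine kinase, had 4.01, 3.44 and 3.39, 3.95, 3.33 and 2.88 and 2.46, 2.04 and 1.51. In Lynx1 and Pim1 the response to both overlapped that to LPS and exceeded that to IFNG. Of the type I interferon and antiviral list 5 of 24 departed, all below the sum, and so did Irgm2 (-2.21 ± 0.33, with missing sets) and Igtp (-1.60 ± 0.30).

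**Figure D3:**
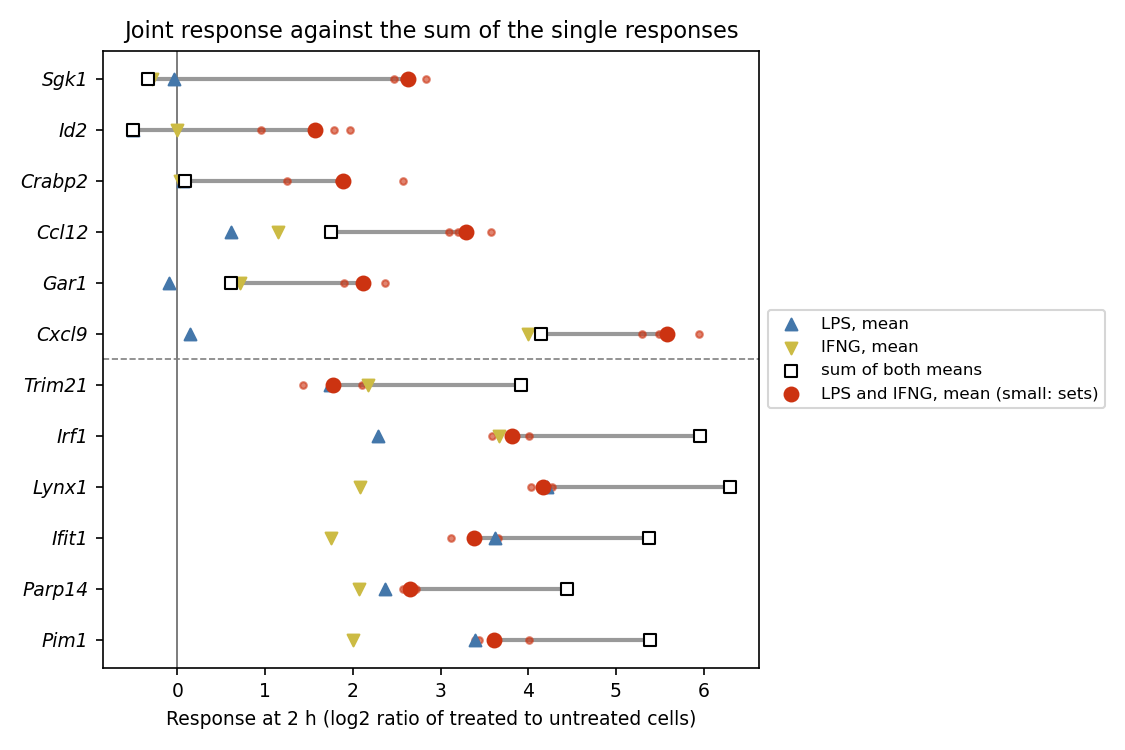
For the 6 named genes with all set values and the largest departures above the sum (above the dashed line) and the 6 below it, symbols give the mean log2 ratio of treated to untreated cells at 2 h for LPS, IFNG and both (small points are the 3 sets with both), and open squares the sum of the single means. Sgk1 lies 2.96 above its sum and Trim21 2.15 below.

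The same step was measured at 1 h and 4 h on other arrays. At 1 h IFNG added to LPS raised 112 genes (0.966%) and lowered 5 (0.0431%), and at 4 h it raised 302 (2.61%) and lowered 179 (1.54%). Of the 236 genes higher at 2 h, 83 were higher at 1 h (35.2% of them and 74.1% of the 112), 115 at 4 h (48.7% and 38.1%) and 41 at all 3 times. Of the 82 lower at 2 h, 27 were lower at 4 h (32.9% and 15.1%) and 1 at 1 h, an unnamed probe. A gene past the threshold at 1 time and not at another is not thereby shown to differ, so the differences between times were tested. Before the sign was turned, 1 dye-swapped pair of the 1 h LPS group correlated at 0.08 across probes, where the 6 pairs of the compared 2 h groups ran from -0.66 to -0.31, and its part in the 1 h values was not tested.

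Between 1 h and 2 h 14 genes changed their step (0.121%; 6 upward, 0.0518%, and 8 downward, 0.0690%). Leaving out a set moved this count between 1 and 16: it was 1 without set 1 and 2 without set 2 of every group, 9 without set 2 of LPS with IFNG at 2 h, and 7 to 9 without any 1 set of either 1 h group. Nos2 gained 1.30 ± 0.28 (SE; adjusted p = 0.046), its step going from 0.31 to 1.62. Irx2, a homeobox factor, gained 1.01 and the G protein subunit Gnb4 0.90. The remaining upward changes were larger and belonged to unnamed probes, with gains of 1.642, 1.615 and 1.598 (adjusted p = 4.5e-07, 0.046 and 9.7e-05). The other 8 went down, among them an unnamed probe and Irgm2 (-1.89, with missing sets). Irf1 lost 1.75 (SE 0.37; adjusted p = 0.036), as LPS alone took it from 0.60 to 2.29 while both ligands gave 3.87 and 3.81. Ifit1 lost 1.53, with LPS alone at 0.84 and then 3.63, and both ligands at 2.12 and 3.38. Parp14 lost 1.68, Mx2 1.64, Trim21 1.61 and the gene 5430427O19Rik 1.69. Over the type I interferon and antiviral list the median step was 0.82 at 1 h (9 of 24 higher), 0.33 at 2 h (6 higher) and -0.06 at 4 h (1 higher and 1 lower), against medians of 0.00, 0.01 and -0.02 over all genes.

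Between 2 h and 4 h the step changed in 73 genes (0.630%; 33 upward, 0.285%, and 40 downward, 0.345%), and in 204 with the set as a block. Leaving set 1 out of every group gave 7 calls and set 2 13, and leaving out set 1 of LPS at 4 h gave 47. Members of the GTPase families lost part of their step while LPS alone rose: Tgtp1 with LPS alone averaged 0.03, 0.99 and 3.88 at 1, 2 and 4 h, and with both ligands 3.70, 5.15 and 5.62. Its step fell by 2.42 (SE 0.48; adjusted p = 0.0048). A probe of Tgtp1 stood at the deposited maximum in 1 array with both ligands at 2 h and 1 at 4 h, so both averages are lower bounds and the size of the fall is not exact. Iigp1 fell by 2.19 and Gbp3 by 1.95, with LPS alone at 0.32 and then 3.35 for Iigp1 and at 2.14 and then 4.99 for Gbp3. In Sgk1 the response to both ligands was lower at 4 h. With both ligands it averaged 2.61, 2.63 and 0.46 (SD 1.48 at 4 h, n = 3), and with LPS alone at most 0.64, and its step fell by 2.85 (adjusted p = 0.0012). F3 fell by 1.92 (adjusted p = 0.049) and the tyrosylprotein sulfotransferase Tpst1 by 1.73. Cd274 (-1.80) and Irgm2 (-1.78), each with a missing set, passed as well.

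Several genes with no difference past the threshold at 2 h had one at 4 h. The ectonucleotidase Entpd1 averaged -0.06 with both ligands at 2 h and 1.69 at 4 h, and its step rose by 1.76 ± 0.19 (SE; adjusted p = 4.6e-07). The steps of Gpr33, a chemoattractant receptor, rose by 1.89, of the homeobox factor Lhx2 by 1.79, of the sphingosine phosphate phosphatase Sgpp1 by 1.66, and of the peroxisomal oxidase Acox3 by 1.57. The step of Ly6i, already past the threshold at 2 h, rose by a further 1.60. The step of Cxcl9 was 5.14, 5.44 and 5.28 at 1, 2 and 4 h. Its differences between times, 0.29 ± 0.27 (SE) and then -0.16 ± 0.28 (SE), did not pass. In 1 array of LPS with IFNG at 1 h Cxcl9 stood at the deposited maximum, so its 1 h value is a lower bound.

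**Figure D4:**
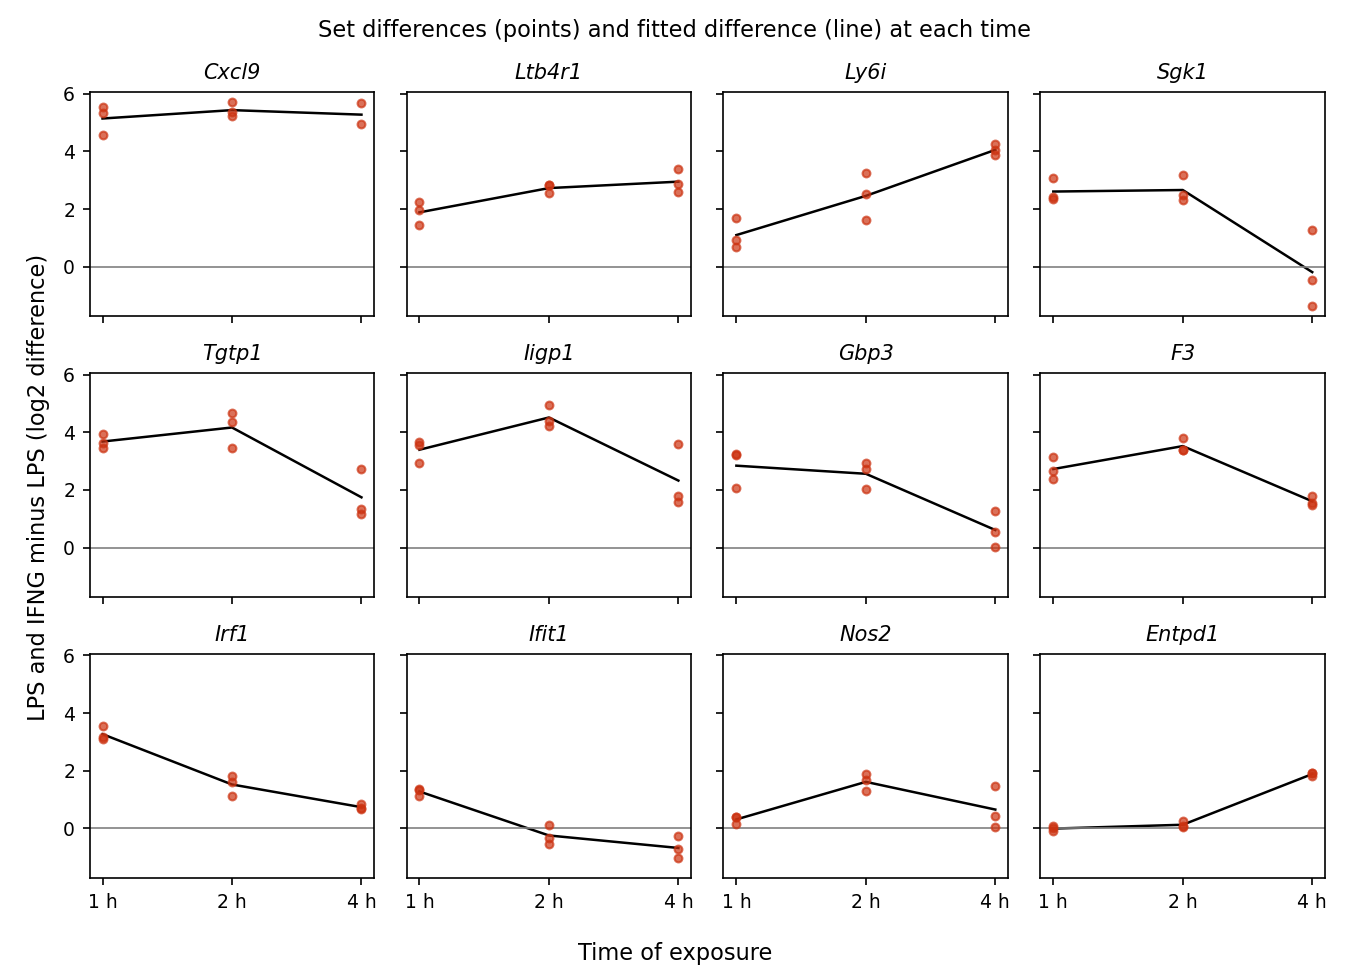
Points are the log2 differences between LPS with IFNG and LPS alone in single sets at 1, 2 and 4 h and lines join the fitted differences, for 12 genes chosen after their values were seen to show the kinds of time course. Cxcl9 lies between 5.14 and 5.44, Tgtp1, Iigp1, Gbp3 and Sgk1 drop from 2 h to 4 h, Irf1 and Ifit1 drop from 1 h to 2 h, and Entpd1 rises at 4 h; a set without a value has no point.

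Promoter letters were counted over all calls. Of the 236 higher genes 156 matched a promoter, and 27 of them (17.3%) held a GAS match and 20 (12.8%) an ISRE match. Among the 7761 named genes tested with a promoter the shares were 8.56% and 3.93%, and they were 9.55% and 3.99% among all 27025 genes with a promoter sequence. Of the 82 lower genes 56 matched, with 3 (5.36%) holding each motif. Of the 15 largest rises 10 matched a promoter, with GAS in Irf8, Sgk1 and Tgtp1 and ISRE in Gbp3, Sgk1, Socs1 and Tgtp1. Sgk1 held both in 1 of its 6 listed starts, and Irf8 and Gbp3 each had another listed start with neither. None of the 8 matched genes among the 10 largest falls held either. Of the 4 matched genes of the 2 GTPase families, all held an ISRE match and 3 a GAS match. These shares are descriptions of letters in 300 bases, with no test.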

How the data were processed

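The values the authors deposited are log2 ratios of Cy5 to Cy3 for 16281 probes on each array, with the channel contents per the labels. Image reading, signal correction and normalisation: not given in the sources used here. By channel, the sign was turned where Cy3 held the treated RNA, exact zeros (1283 to 1731 per array of the comparison) were read as missing, and both dye orders of a set were averaged. Before turning, the 6 dye-swapped pairs of the compared groups correlated at -0.662 to -0.312, and those of IFNG alone at 2 h at -0.248 to -0.0107. The part of these weaker correlations in the departure from the sum and in the calls of IFNG alone was not tested. Per-sample columns not used number 0.

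Probes with values in at least 2 of 3 sets of all 16 groups were kept (13698, leaving out 2583). Gene names came from the platform's annotation, brought to current symbols through RefSeq, and 13738 probes had 1 gene, 52 several and 2491 none. Probes of 1 gene were averaged, giving 9751 named genes and 1838 unnamed probes. In each set value only the probes with a value there were averaged, so set values of 1 gene can rest on different probes. Of the set values of the comparison 0.578% were missing.

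Differences were tested with limma 3.58.1 (R 4.3.3, with the data.table package in version 1.17.8), and summaries and plots were made with pandas 2.3.3 and matplotlib 3.10.9 under Python 3.11.15. A linear model of the 48 set values took 1 mean for each group and moderated variances by empirical Bayes (32 degrees of freedom for the residuals and 5.885 for the prior, with a median residual SD of 0.196). The groups given 2-methyl-thio-ATP, alone or with LPS, were in this fit and shared its estimate of the spread. Tests were two-sided with Benjamini-Hochberg adjustment over all 11589 genes and a threshold of 0.05. The number of arrays limits the precision, and the median SE of the comparison was 0.159.

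Set numbers were taken to pair samples where same-numbered deviations from the group means correlated above 0.1 in every pair. The main fit nevertheless held no term for the set, so its calls, SEs and p-values do not use this pairing. The fit with the set as a block is given as an alternative. For LPS with IFNG and LPS at 2 h the pairing correlations were 0.42, 0.49 and 0.169, and for the 2 h and 4 h groups they lay between 0.13 and 0.696. Set 3 of LPS with IFNG at 2 h correlated at 0.275 with set 1 of LPS, above its value with set 3.

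Named genes were the 15 largest rises and 10 largest falls (for other tests the 6 largest each way) among named genes past the threshold with the same sign in all 3 sets, plus list members and the checks of direction Tnf, Il1b, Ccl4, Ptgs2, Irf1 and Socs1. The members and lists were chosen with earlier results of these data known. The fit was tested on simulated data for the 2 h comparison with 200 of 11589 genes changed. It recovered 90 of 100 genes at a log2 size of 1 and 28 of 100 at 0.5, and 7 of 125 calls were unchanged genes. The simulated noise was independent between genes and sets, whereas same-numbered sets deviated together in these arrays. The rates for the real data can therefore differ, which was not tested. Alternatives covered pairing, zeros, centring, dye, units, groups in the fit, filters, probes, prior and single sets.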

Additional observations from a re-analysis of the deposited data

Results flagged for a closer look

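The difference between LPS with IFNG and LPS alone was itself tested between times (limma, Benjamini-Hochberg over 11589 genes), and up to 6 named genes each way, with the largest changes among those past the threshold with all set values and the same sign in all 3 sets, are given as log2 changes of that difference. From 1 h to 2 h it grew for Nos2 (1.30), Irx2 (1.01) and Gnb4 (0.898), and it shrank or turned for Irf1 (-1.75), 5430427O19Rik (-1.69), Parp14 (-1.68), Mx2 (-1.64), Trim21 (-1.61) and Ifit1 (-1.53). From 2 h to 4 h it grew for Gpr33 (1.89), Lhx2 (1.79), Entpd1 (1.76), Sgpp1 (1.66), Ly6i (1.60) and Acox3 (1.57). Over the same interval it shrank for Sgk1 (-2.85), Tgtp1 (-2.42), Iigp1 (-2.19), Gbp3 (-1.95) and F3 (-1.92) and turned below 0 for Tpst1 (-1.73). Irgm2 (-1.89, then -1.78) and Cd274 (-1.80 from 2 h to 4 h) also passed but lacked a set value. Groups of 3 sets were not searched for single outlying samples.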

How the results depend on the processing

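Among the named and listed genes, none that passed at 2 h changed direction under the alternatives run for them; directions of single genes were not followed for the other tests. List medians near 0 changed sign, such as that of the inflammatory cytokines (-0.0339 to 0.11), the NF-kB family (-0.0311 to 0.174), MAP kinase feedback (-0.0117 to 0.167), pattern and Fc receptors (-0.0801 to 0.133), MHC class II (-0.0409 to 0.0799) and the LPS-repressed genes (-0.155 to 0.016). The 318 calls of LPS with IFNG against LPS at 2 h became 698 with the set as a replicate block, 187 with only the arrays that had treated RNA in Cy3, 172 with only Cy5, 478 with arrays as units and 99 with only the groups compared in the fit. Leaving out sets gave 123 to 298, with the lowest count without set 1 of every group. For the departure from the sum (43) the same alternatives gave 137 with the block, 27 with Cy3, 60 with Cy5, 91 with arrays as units, 20 with only the groups compared and 7 to 58 with a set left out. For the change of the step from 1 h to 2 h (14) they gave 42 with the block, 9 with zeros kept as 0, 6 with Cy3, 3 with Cy5, 39 with arrays as units, 3 with only the groups compared and 1 to 16 with a set left out. From 2 h to 4 h (73) they gave 204 with the block, 28 with Cy3, 29 with Cy5, 154 with arrays as units, 4 with only the groups compared and 7 to 107 with a set left out. The balance moved too: 18 of 43 departures lay above the sum, but 8 of 12 without set 2 of every group, and 6 of 14 changes from 1 h to 2 h were upward, but 24 of 42 with the block. From 2 h to 4 h 33 of 73 were upward, but 7 of 7 without set 1 and 10 of 13 without set 2 of every group. The block was the set within each time. It is not a pairing for the departure, where set 3 of LPS alone and of IFNG alone correlated at -0.0334. Between the 1 h groups of the step, same-numbered sets correlated at 0.458, 0.201 and 0.713. Across 1 h and 2 h, which this block does not pair, set 1 correlated at -0.246 with both ligands and -0.235 with LPS. Centring arrays on their nonzero median moved the share of higher calls from 74.2% to 76.4%, and the robust prior gave 315 calls. Of 111 genes past 2-fold, 95 passed a test against a fold of 1.2. With 200 bases before the start, GAS and ISRE were in 13.5% and 9.62% of the higher genes and in 6.0% and 2.54% of named genes tested. Fewer sets or arrays leave fewer degrees of freedom; the cause of the other shifts was not tested.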
